A study of Mus musculus with 14 samples.

Results

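Mouse somatic cell nuclear transfer (SCNT) embryos that had been exposed to trichostatin A (TSA) were compared, as one group, with SCNT embryos that had not. Embryos were assigned by their titles alone: 8 embryos had TSA in the title and 6 did not, which takes in all 14 embryos sequenced. The study treated SCNT embryos with TSA and vitamin C (VC), singly, together or in sequence, and sequenced the RNA of single two-cell embryos, collected 28 h after nuclear transfer according to the labels. The 8 TSA embryos were 3 TSA(0-8h), 2 TSA(0-8h)+VC(0-8h) and 3 TSA(0-8h)+VC(8-15h) embryos, and the 6 others were 3 controls, 1 VC(0-8h) and 2 VC(8-15h) embryos. TSA was given at 50 nM for the first 8 h from the start of activation, and VC at 10 µg/ml either in the same 8 h or from 8 to 15 h. All embryos were of strain B6D2F1 by label, were activated with strontium in the presence of cytochalasin B, and were cultured in medium with deionized albumin, so controls shared the whole procedure except the small molecules. No fertilized embryo is part of the comparison.

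TSA inhibits the zinc-dependent histone deacetylases, the enzymes that strip acetyl groups from histone tails. Acetylated chromatin is in general more open to transcription, and TSA treatment after nuclear transfer is known to improve the development of cloned mouse embryos. In the mouse the two-cell stage is the time of the major zygotic genome activation, when maternal RNA stored in the oocyte is degraded and transcription from the embryonic genome takes over. TSA had been withdrawn many hours before these embryos were collected, so the comparison asks which RNAs still differed at the two-cell stage, with VC or without it. An embryo is a bulk sample here, so less RNA per cell and fewer cells holding the RNA cannot be told apart.

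Almost no transcript separated TSA embryos from embryos without TSA. Of 25650 transcript entries in the deposited tables, 6106 reached 1 RPKM in at least 5 of the 14 embryos and were tested with limma on log2(RPKM+1), with VC and the library pool, read from the library number in each library's name, as covariates. No label says what the pools shared beyond that number. At a Benjamini-Hochberg adjusted p under 0.05, 2 entries were higher with TSA (0.0328% of those tested) and 0 were lower (0%). The 2 entries were Omt2a, an oocyte maturation gene transcribed in the growing oocyte, and a short entry of Cnbp, which encodes a zinc finger protein that binds single-stranded nucleic acids. The next smallest adjusted p in the limma fit was 0.504. At an unadjusted p under 0.05, 171 entries (2.8%) were higher and 164 (2.69%) lower. At an unadjusted p under 0.01 these were 48 (0.786%) and 32 (0.524%), and the median difference over all 6106 was −0.02 on the log2 scale. The embryos are separate embryos, and the p-values rest on the spread between embryos. In the limma fit that spread is for the larger part borrowed from entries of similar level. A limma p therefore does not measure an entry's own spread alone. With eBayes without a trend the limma adjusted p was 0.824 for Omt2a and 0.353 for Cnbp.

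**Figure D1:**
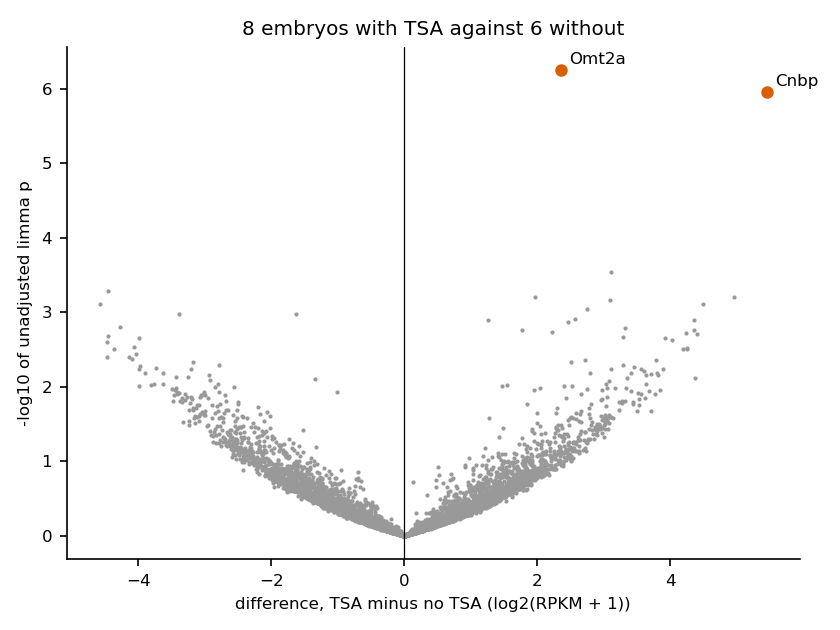
Each point is 1 of the 6106 entries tested; the horizontal axis is the fitted difference, TSA minus no TSA, on the log2(RPKM+1) scale, and the vertical axis is −log10 of the unadjusted limma p. The 2 entries past the adjusted threshold, Omt2a and Cnbp, are drawn in orange, and the remaining entries spread about evenly to both sides.

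The promoters of Omt2a, of its neighbour Omt2b and of Cnbp are shown because these are the genes on which the result turns. Each runs 5′ to 3′ on the gene's strand, from 250 bases before to 50 bases after the start site, from the RefSeq table for build GRCm38.p6, at chr9:78313999-78314298 (minus strand) for Omt2a, chr9:78327780-78328079 (plus strand) for Omt2b and chr6:87851057-87851356 (minus strand) for Cnbp. Capitals mark GC boxes (GGGCGG) and CCAAT boxes (CCAAT), searched on both strands together with TATAAA and CACGTG.
Omt2a: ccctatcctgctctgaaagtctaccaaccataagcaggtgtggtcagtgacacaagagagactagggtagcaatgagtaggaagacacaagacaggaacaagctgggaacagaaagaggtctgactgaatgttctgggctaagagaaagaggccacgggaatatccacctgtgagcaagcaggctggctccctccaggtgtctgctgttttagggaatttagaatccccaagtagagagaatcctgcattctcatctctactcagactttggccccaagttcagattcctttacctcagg
Omt2b: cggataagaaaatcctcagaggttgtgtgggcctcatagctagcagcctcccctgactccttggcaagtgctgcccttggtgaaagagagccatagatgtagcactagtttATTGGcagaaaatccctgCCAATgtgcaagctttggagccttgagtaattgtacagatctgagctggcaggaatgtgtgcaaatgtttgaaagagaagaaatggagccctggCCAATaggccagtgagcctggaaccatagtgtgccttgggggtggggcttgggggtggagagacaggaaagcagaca
Cnbp: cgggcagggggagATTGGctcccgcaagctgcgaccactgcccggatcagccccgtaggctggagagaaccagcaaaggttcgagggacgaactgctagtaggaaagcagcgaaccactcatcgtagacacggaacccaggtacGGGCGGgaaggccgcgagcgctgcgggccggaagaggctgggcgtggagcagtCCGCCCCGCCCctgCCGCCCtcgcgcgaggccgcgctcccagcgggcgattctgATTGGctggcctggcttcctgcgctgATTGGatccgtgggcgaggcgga
The Omt2a promoter held none of the 4 motifs, the Omt2b promoter held 3 CCAAT boxes, and the Cnbp promoter held 4 GC boxes and 3 CCAAT boxes. Among 27018 promoters of the same length, 35.9% held a GC box, 37.9% a CCAAT box, 14.2% a TATAAA and 7.24% a CACGTG. G and C made up 49.0% of the Omt2a promoter, 51.3% of the Omt2b promoter and 68.7% of the Cnbp promoter, against a median of 52.7%. These matches describe the letters only.

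Omt2a (NM_001164523, mm9 chr9:78159779-78162604, minus strand) was detected in every embryo and was higher with TSA in the fit of this entry. In the 8 TSA embryos its level was between 487.7 and 6390 RPKM, with a median of 1355 RPKM. Without TSA it was between 26.94 and 1885 RPKM, with a median of 406.6 RPKM. The groups overlapped: 3 TSA embryos, all 3 given TSA alone, lay above every embryo without TSA, and the lowest TSA embryo lay below 2 of the controls. The fitted difference was 2.35 ± 0.41 on the log2(RPKM+1) scale (SE, 95% interval 1.52 to 3.18, limma adjusted p = 0.00343). A two-sided exact permutation test of the group means, without covariates, gave p = 0.0200. The recovered length of the entry, 610 bases, equals that of 1 of 5 annotated Omt2a transcripts, the one with 3 exons.

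In this Omt2a entry the fitted difference was 2.34 without VC and 2.20 with VC on the log2 scale, and the interaction had an unadjusted limma p of 0.979. In embryos without VC, the 3 controls had 340.7, 916.1 and 1885 RPKM, and the 3 TSA(0-8h) embryos had 6390, 4601 and 2600 RPKM. In embryos with VC, the 3 without TSA had 393.3, 419.9 and 26.94 RPKM, and the 5 with TSA had between 487.7 and 1485 RPKM. Within each VC setting, no TSA embryo fell below any embryo without TSA in this entry. The lowest of these embryos, VC(8-15h) replicate 2, had 1.78% of its Omt2a reads in this entry and 98.2% in the second Omt2a entry. In the embryos with VC alone, the plain difference of means was 2.56 and the exact permutation p was 0.0179, the smallest that 5 against 3 embryos allow. Adjusted over the 3 transcripts followed in those embryos (Omt2a, Ptma and H2bc12), this exact p became 0.0536. Earlier results of these data had picked these 3 in TSA against control, so their differences without VC are those of that choice. The fit over all embryos shares the embryos without VC with that choice. With the reads and lengths of both Omt2a entries summed, the groups with VC overlapped, since VC(8-15h) replicate 2 was at 693.4 RPKM and 2 of the TSA embryos at 392.9 and 648.3 RPKM. The difference over the whole gene was then 1.07 with an exact permutation p of 0.0893, or 0.268 adjusted over the 3 transcripts. By library pool the plain difference of means of the first Omt2a entry, not adjusted for VC, was 2.44, 2.57 and 0.06. The pool with 3 embryos thus showed almost none of it. That pool has no embryo given VC without TSA, so TSA and VC are mixed in its value.

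Omt2b, the paralog of Omt2a, lies 12791 bases away on the opposite strand (NM_205822, mm9 chr9:78175396-78177427). Its level was 446.0 to 5030 RPKM with TSA and 139.3 to 2919 RPKM without, and the ranges overlapped broadly. The difference was 1.25 ± 0.37 (SE, limma adjusted p = 0.504), and the second Omt2a entry (NM_001111286) differed by 1.47 ± 0.55 (limma adjusted p = 0.717). Transcripts of the 2 genes aligned over 707 bases with 91.5% identity and an identical run of 255 bases, longer than a read, so reads cannot be fully assigned between them and the level of each gene is uncertain. With the reads and lengths of both Omt2a entries summed, Omt2a differed by 1.51 ± 0.34 (limma adjusted p = 0.135) and did not pass the test.

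The Cnbp entry that passed the test (NM_001109745) has a recovered length of 117 bases, whereas NM_013493, at 2178 bases, has the length of a complete annotated transcript of 5 exons. Its level was 5.47 to 2059 RPKM with TSA (median 672.4) and 0 to 29.91 RPKM without (median 7.95). Of the 8 TSA embryos 7 lay above all 6 embryos without TSA, and the exception was TSA(0-8h) replicate 2, at 5.47 RPKM. The difference was 5.45 ± 0.99 on the log2 scale (SE, 95% interval 3.46 to 7.43, limma adjusted p = 0.00343), and the exact permutation p was 0.00266. In the 3 pools the plain difference of means, not adjusted for VC, was 7.03, 4.09 and 7.35. The fitted difference was 7.03 without VC and 4.93 with VC. In embryos with VC this was the 1 entry past the adjusted threshold (0.0164% of those tested).

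Both calls depended on the setting, while both signs did not. With no filter on low values the limma adjusted p was 0.829 for Omt2a and for Cnbp, with eBayes without a trend it was 0.824 and 0.353, and with limma-voom on recovered reads 0.737 and 0.587. Cnbp also lost its call without TSA(0-8h) replicate 1 (limma adjusted p = 0.143) or replicate 3 (0.0717).

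The remainder of Cnbp did not move in the same way. The full-length entry had a median of 229.8 RPKM with TSA and 176.0 RPKM without, a difference of 0.59 ± 0.72 (SE, limma adjusted p = 0.991). The entry NM_001109746, of 199 bases, differed by 2.04 ± 1.37 (limma adjusted p = 0.956), and the whole gene by 0.87 ± 0.68 (limma adjusted p = 0.985). The share of Cnbp reads in the 117-base entry, which is named here for its difference in these same embryos, had a median of 16.4% with TSA (0.208% to 23.4%) and 0.242% without (0% to 0.813%). The 107 to 12697 Cnbp reads per embryo set the precision of these shares. In the TSA embryo that stood apart, 5 of 2401 reads fell in the entry (Clopper-Pearson 95% interval 0.0677% to 0.485%), and in control replicate 2 it was 0 of 107 reads (Clopper-Pearson 95% interval 0% to 3.39%), where a floor of 3 reads would be a share of 2.8%. Intervals and floors cover counting error only. Cnbp is on chromosome 6 (mm9 chr6:87792609-87801100, minus strand).

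**Figure D2:**
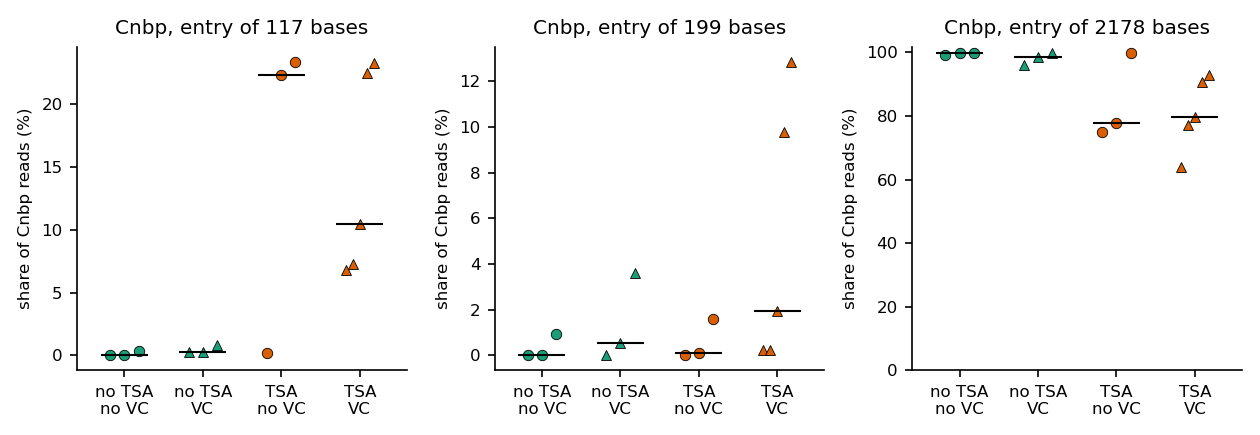
Share of all Cnbp reads, in percent, that fell in each of the 3 Cnbp entries, for each embryo (point) in the 4 combinations of TSA and VC; the line is the median of a combination. The 117-base entry holds 0.813% or less in every embryo without TSA and 6.79% or more in 7 of the 8 TSA embryos.

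Beyond Omt2a and Cnbp, the 15 genes with the smallest p in each direction are described as values, because none of the remaining 28 passed the adjusted threshold (limma adjusted p from 0.504 to 0.688). For each gene the entry with the smallest p was taken, and entries without a gene symbol were left out. The 15 higher entries differed by 1.25 to 5.45 on the log2 scale. The values belong to single entries, and other entries of the same gene often differed less. Gtf2i, which encodes the transcription factor TFII-I, was in its entry NM_001080746 at 20.89 to 93.0 RPKM in the TSA embryos (median 53.9). In embryos without TSA it was at 0.0497 to 17.65 RPKM (median 0.339), and 5 of those 6 were at 1.16 RPKM or less. The groups did not overlap, and the difference was 4.48 ± 1.26 (SE, limma adjusted p = 0.504). The second Gtf2i entry, NM_001080749, differed by 0.05 (limma adjusted p = 0.999).

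Zcwpw1, a reader of methylated histone H3 that acts in meiosis, had 0 to 1.27 RPKM in the 6 embryos without TSA (median 0.0644). In TSA embryos it had 0.482 to 172.4 RPKM (median 56.6), and 7 of the 8 lay above every embryo without TSA. Its difference was 4.95 ± 1.36 (SE, limma adjusted p = 0.504). Orc6, a subunit of the origin recognition complex, had medians of 51.0 RPKM with TSA and 0.631 RPKM without in NM_001163791, while its entry NM_019716 differed by −0.23. Sfr1, a cofactor of homologous recombination, had 41.3 and 0.234 RPKM. Rbm5, a splicing regulator, had 131.8 and 10.3 RPKM. Cul3, the scaffold of a family of ubiquitin ligases, had 340.7 and 83.2 RPKM, and Oaz1, the antizyme that limits polyamine synthesis, had 489.3 and 138.5 RPKM. For Orc6, Sfr1, Rbm5, Cul3 and Oaz1 between 4 and 7 of the 8 TSA embryos were above every embryo without TSA.

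Among the 15 entries so chosen that were lower with TSA, the differences were −2.79 to −4.57. Uhrf1, which guides maintenance DNA methylation, was at 0 to 0.816 RPKM with TSA and 0.779 to 685.0 RPKM without, in an entry of 187 bases. In that entry 7 of the 8 TSA embryos lay below every embryo without TSA, and the difference was −4.06 ± 1.30 (SE, limma adjusted p = 0.567). This order rests on single reads. Control replicate 2 and the VC(0-8h) embryo had 1 read each and VC(8-15h) replicate 1 had 3, against 0 to 2 in TSA embryos. The second Uhrf1 entry, NM_010931, differed by −2.27 (limma adjusted p = 0.933), with −4.94 without VC and −0.08 with VC. Clpp, a mitochondrial protease, was under 1 RPKM in 7 of 8 TSA embryos, with medians of 0.212 RPKM with TSA and 65.4 RPKM without. Pdhb, a subunit of pyruvate dehydrogenase, had medians of 43.3 and 265.5 RPKM, and H2ac22, a replication-dependent histone H2A gene, had 0.0971 and 34.2 RPKM. Many of these entries were near 0 in nearly every TSA embryo but also in 1 or more embryos without TSA.

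**Figure D3:**
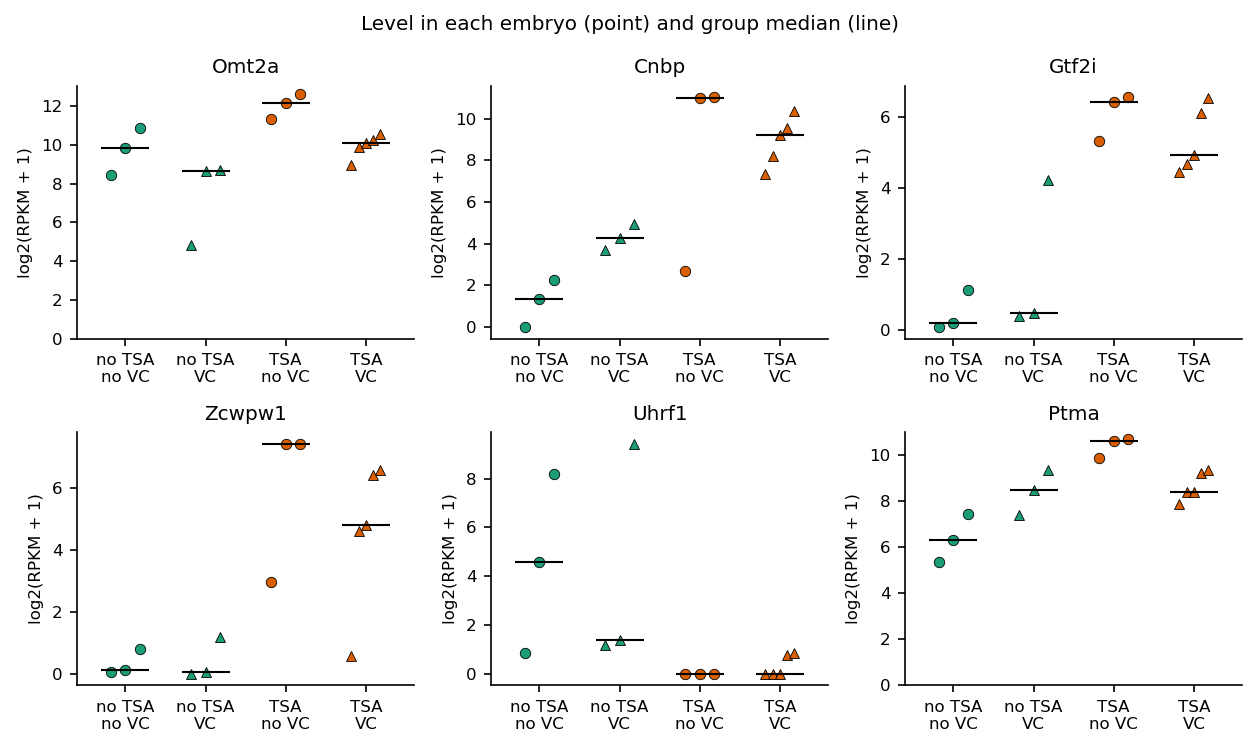
Level on the log2(RPKM+1) scale of 6 transcripts in each embryo (circles without VC, triangles with VC; green without TSA, orange with TSA), with the median of each combination as a line. Omt2a and the 117-base Cnbp entry passed the adjusted threshold, and Gtf2i, Zcwpw1, Uhrf1 and Ptma did not.

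In 5 of the 6106 entries the 2 groups did not overlap at all: 2 were higher in every TSA embryo (0.0328%) and 3 lower (0.0491%). Of the 3003 splits of 14 embryos into 8 and 6, 1 gives such a separation in each direction. A few such entries among 6106 therefore arise without any difference between the groups, and the entries are given as values only. Apart from Gtf2i these were named after their values were seen. Senp3, a protease that removes SUMO from proteins, was at 18.1 to 96.1 RPKM with TSA and 0.248 to 13.8 RPKM without. Senp6, another SUMO protease, went the other way, with 1.94 to 33.7 RPKM with TSA and 37.6 to 149.6 RPKM without. Hipk2, a nuclear kinase, was at 1.08 to 69.6 RPKM with TSA and 71.3 to 188.8 RPKM without, and Fgd6, an exchange factor for Cdc42, was at 0.0423 to 16.2 and 23.1 to 49.0 RPKM. The differences of these 5 entries were 4.48 for Gtf2i, 3.16 for Senp3, −2.65 for Senp6, −2.78 for Hipk2 and −3.41 for Fgd6, with limma adjusted p-values from 0.504 to 0.798. The second Hipk2 entry, NM_001136065, differed by −2.54 (limma adjusted p = 0.926).

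The spread between single embryos set what could be detected. The median standard error of a difference was 1.26 on the log2 scale, the median residual SD was 2.15, and the median 95% interval reached 2.52 to either side. A change below about that size was not detectable for a typical transcript. The SE of Omt2a, at 0.41, was far below that median, and like the other SEs it draws for the larger part on other entries. Embryo pairs were more alike within a pool than between pools, with like values for pairs of equal and of unequal TSA status. The mean Spearman correlation of embryo pairs across entries was 0.720 within a pool for pairs of equal TSA status and 0.719 for pairs of unequal status, and 0.630 between pools (28 pairs within pools and 63 between).

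No difference in depth or in the number of transcripts was detected. Between 3021540 and 13589389 reads were counted per embryo, with an exact permutation p of 0.866 between the groups. Transcripts at 1 RPKM or more numbered 5043 ± 1023 with TSA (SD, n = 8) and 5061 ± 1247 without (SD, n = 6), with an exact permutation p of 0.977. The mean number was 4001 with TSA and 4818 without in embryos without VC, and 5668 and 5303 in embryos with VC, so the order turned with VC. Of 11 oocyte and early embryo markers, 9 had a median of at least 1 RPKM, among them Gdf9, Bmp15 and Dppa3. Ooep and H1f8 did not. Ooep had medians of 0.329 RPKM with TSA and 0 without, with highest values of 604.1 and 0.488 RPKM. H1f8 had medians of 0.508 and 0 RPKM, with highest values of 7.09 and 0 RPKM. The summed level of all 11 markers was 482.8 to 1715 RPKM with TSA and 308.2 to 1184 RPKM without. The summed level of 10 cumulus and granulosa markers was 1.84 RPKM or less in every embryo, with Fshr, Inha and Inhba at 0 throughout, and that of 3 blood markers was 0.198 RPKM or less.

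No change was detected in the RNA of the enzymes that TSA inhibits. Of 11 histone deacetylase genes in the tables, 4 were expressed in enough embryos to be tested, and 0 passed at the adjusted or the unadjusted threshold of 0.05. Hdac1, a nuclear class I enzyme, was at 5.49 to 215.8 RPKM with TSA and 0.187 to 191.9 RPKM without, a difference of 1.04 ± 1.07. Hdac2, its close relative, was at 0 to 144.9 and 1.16 to 239.2 RPKM (−1.38 ± 1.40), and Hdac6, the cytoplasmic tubulin deacetylase, at 0.0401 to 38.5 and 0 to 152.7 RPKM (−1.71 ± 1.39). Hdac10 was listed at 0 in 6 of the 14 embryos (−0.12 ± 1.24). Limma adjusted p-values of these 4 were 0.974 or more, and with intervals about 2 log2 units to either side or wider, changes smaller than that were not detectable.

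Genes that work with the deacetylases or read acetylated histones also had no entry past the adjusted threshold. Of 36 entries for subunits of deacetylase complexes, 2 were higher and 1 lower at an unadjusted p under 0.05 (5.56% and 2.78%, against 2.8% and 2.69% of all entries). Mta2, of the NuRD complex, had a median of 249.2 RPKM with TSA and 75.8 without, Brms1, of the Sin3 complex, 57.5 and 0.377 RPKM, and Ncor1, a corepressor that recruits Hdac3, 7.71 and 88.2 RPKM in NM_001252313. Its entries NM_177229 and NM_011308 differed by 0.38 and −0.51. Among 33 entries for bromodomain proteins, which bind acetylated lysine, 1 was higher (Smarca2, medians of 70.5 and 6.15 RPKM) and 1 lower (Brdt, in NM_054054, 13.4 and 75.7 RPKM) at that threshold, which is 3.03% in each direction, close to the share of all entries. The second Brdt entry, NM_001079873, differed by 0.05. Among 17 entries for histone acetyltransferases, 0 passed it. Of 10 entries known to rise with deacetylase inhibitors in cell lines, 7 had a positive difference, with a median of 0.71, and 0 passed either threshold.

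Two-cell embryo genes, which mark genome activation, had more positive than negative differences, and none passed the adjusted threshold. Of 31 two-cell embryo entries, 20 had a positive and 11 a negative difference, with a median of 0.67 against −0.02 for all entries. At an unadjusted p under 0.05, 5 were higher and 0 lower (16.1% and 0%, against 2.8% and 2.69% of all entries). These were B020004C17Rik, Dppa2, Sp110, Tdpoz8 and B020031M17Rik. Dppa2, which binds CpG-rich promoters and activates two-cell genes, had medians of 170.8 RPKM with TSA and 22.3 RPKM without, and a difference of 2.82 without VC and 2.58 with VC. B020004C17Rik differed by 5.08 without VC and 0.47 with VC, and Sp110, in NM_030194, by 2.37 and 0.47. Sp110 had medians of 402.7 and 233.5 RPKM in that entry, while NM_175397 differed by −1.24. Tdpoz8, one of a family of near-identical copies whose reads cannot be fully assigned, had 61.1 and 25.9 RPKM. Among 23 entries of Obox genes and other activation regulators, 10 were positive and 13 negative. Obox3 alone passed an unadjusted p of 0.05 (4.35% higher and 0% lower), with medians of 132.4 and 31.1 RPKM.

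Maternal transcripts were spread evenly around 0. Of 47 oocyte and maternal entries, 23 were positive and 24 negative, with a median of −0.17, and Omt2a was the 1 entry past the adjusted threshold. Eif4e1b, an oocyte form of the cap-binding protein, had 594.9 RPKM with TSA and 1248 RPKM without (−1.01 ± 0.39, limma adjusted p = 0.717). The 16 entries of replication-dependent histone genes had a median of 0.03. At an unadjusted p under 0.05, 2 were lower, H2ac22 and H2bc12, and 0 higher (12.5% and 0%, against 2.69% and 2.8% of all entries).

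Splicing factors and histone chaperones had more entries at the unadjusted threshold than the table as a whole, with 0 past the adjusted one. Of 72 splicing factor entries, 8 were higher and 4 lower (11.1% and 5.56%, against 2.8% and 2.69%), and 39 were positive. Several of them are entries with a recovered length under 300 bases: 2 entries of Srsf5, 2 of Hnrnpc, and 1 each of Hnrnpab and Hnrnpa1. Srsf5, a serine and arginine rich splicing regulator, had medians of 1271 and 267.6 RPKM in its 169-base entry. Its 2 short entries had equal or near-equal read counts in nearly every embryo, so they are not separate results. With reads and lengths of its 3 entries summed, Srsf5 had medians of 463.3 and 329.9 RPKM. The difference was then 1.26 ± 0.50 (SE, limma adjusted p = 0.746). Reads that the short entries share would count more than once in this sum, so it is no exact level of the gene. Of 31 entries for histone chaperones and acidic chromatin proteins, 4 were higher (12.9%: Ptma, Set, Npm1 and Supt16) and 1 was lower (3.23%: Ssrp1, in an entry of 80 bases). The other Ssrp1 entry, NM_182990, differed by −1.01, and the Npm1 entries NM_001252260 and NM_008722 by 1.30 and −0.04. Supt16 and Ssrp1 encode the 2 subunits of the FACT chaperone and had opposite signs (2.61 and −4.27).

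In the other lists 0 entries passed the adjusted threshold, and few passed the unadjusted one, at which 2.8% of all entries were higher and 2.69% lower. Among 69 entries for cytoplasmic ribosomal proteins there were 1 higher and 3 lower (1.45% and 4.35%), among 52 for translation initiation factors 1 and 1 (1.92% each), among 26 for cyclins and M-phase regulators 1 and 3 (3.85% and 11.5%), among 28 for heat shock proteins and tubulins 0 and 1 (0% and 3.57%), and among 11 for DNA methylation genes 0 and 1 (0% and 9.09%). Of 29 proteasome entries 1 was lower (3.45%). It was Psmc3ip, a meiotic recombination factor that the name search had taken in and that is no proteasome subunit. The lists of histone variants (8 entries), sirtuins (2), H3K9 methylation genes (21), pluripotency genes (9) and apoptosis genes (16) had 0 in either direction, and of the 30 cumulus and granulosa genes 0 were expressed in enough embryos to be tested.

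**Figure D4:**
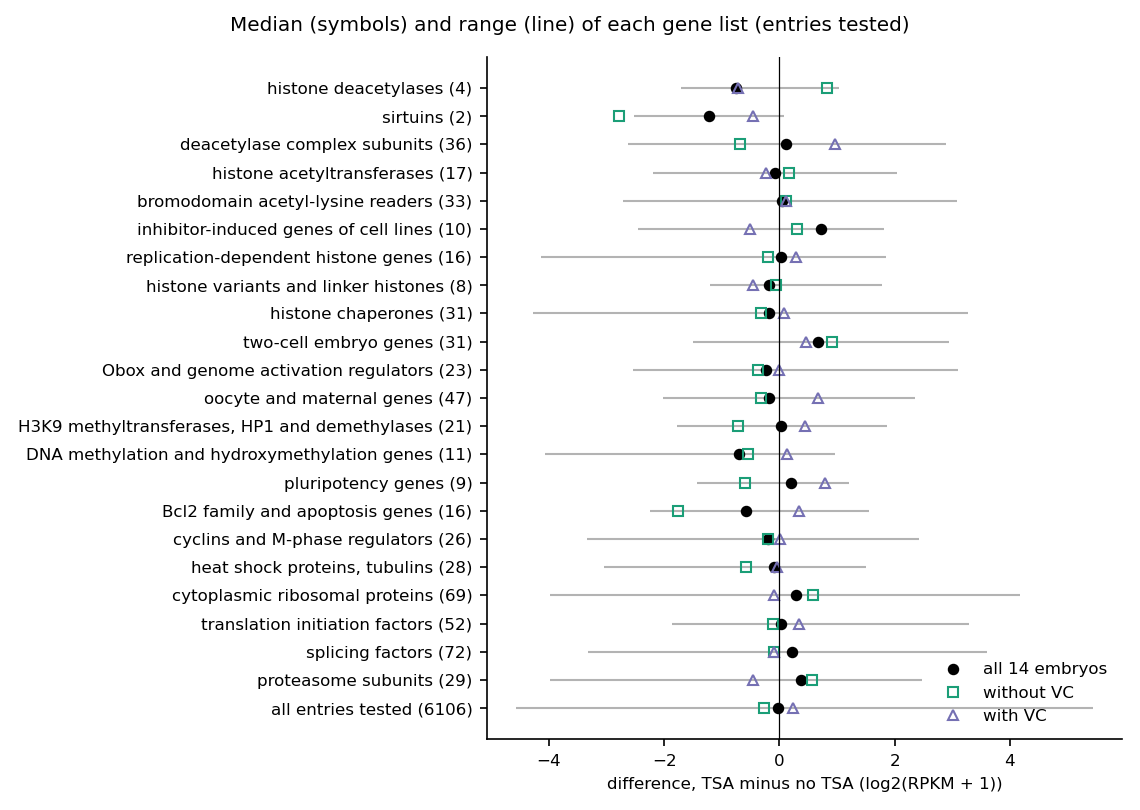
Median (filled circles) and range (lines) of the difference with TSA over the entries of each gene list, with the number of entries tested in parentheses; open squares and triangles are the medians in embryos without and with VC, and the horizontal axis is on the log2(RPKM+1) scale. The ranges of all lists include 0, and the medians without and with VC often lie on opposite sides of it.

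The effect of TSA was next taken apart by VC, because 3 controls and 3 TSA(0-8h) embryos had no VC, and 3 VC embryos and 5 TSA+VC embryos had. The embryos without VC and those with VC share no embryo, but they share pools and were tested on the same 6106 entries. Across those entries the TSA difference without VC and that with VC had a Spearman correlation of 0.0218 and a Pearson correlation of 0.0361, and 3019 entries, 49.4%, had the same sign. The correlations run over genes, which are not independent replicates. The median difference was −0.26 without VC and 0.23 with VC. Transcripts at 1 RPKM or more moved the same way, by −817.3 per embryo without VC and 365.3 with VC, and their part in the medians was not tested. At an unadjusted limma p under 0.05, 89 entries (1.46%) were higher and 91 (1.49%) lower without VC, and 135 (2.21%) were higher and 96 (1.57%) lower with VC. At the adjusted threshold 0 were called without VC in either direction, and with VC 1 was higher (Cnbp) and 0 lower. Of the 20 entries with the smallest p among those higher without VC, 15 were also positive with VC (75%, against 56.3% of all entries). Of those 15, Omt2a and Cnbp had an unadjusted limma p under 0.05 with VC. For the 20 lower entries it was 6 (30%, against 43.7%), and 0 of them reached that p. Picked the other way round, of the 20 entries highest with VC 10 were positive without VC (50%, against 43.9%), and of the 20 lowest 13 were negative (65%, against 56.1%).

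**Figure D5:**
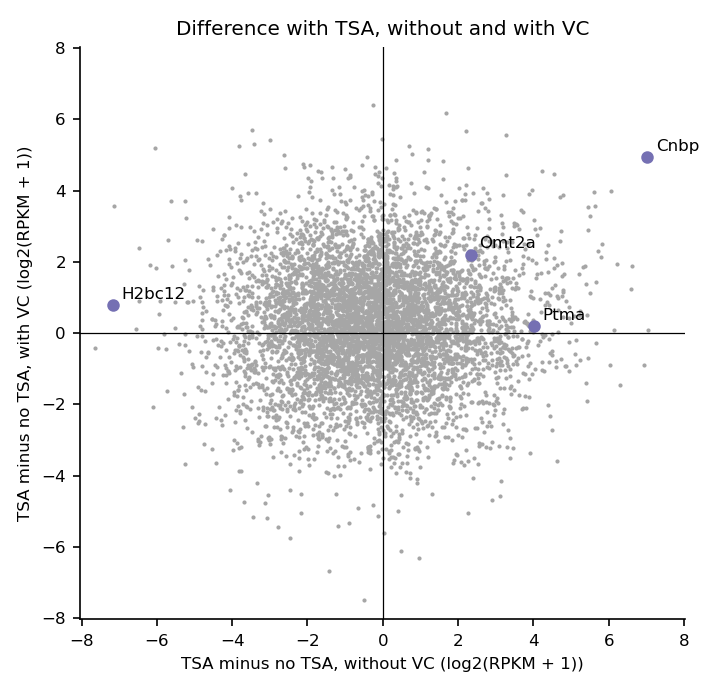
Difference with TSA in embryos without VC (horizontal axis) and with VC (vertical axis), both on the log2(RPKM+1) scale, for the 6106 entries tested. Omt2a and Cnbp lie in the quadrant of higher levels in both, Ptma near 0 with VC, and H2bc12 far to the left without VC.

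Transcripts whose TSA difference depended on VC were sought with an interaction term. At an adjusted limma p under 0.05, 0 entries had a more positive difference with VC (0%) and 0 a more negative one (0%). The smallest limma adjusted p was 0.190. At an unadjusted p under 0.05, 215 entries (3.52%) had a more positive and 108 (1.77%) a more negative difference with VC. These counts go by sign, and a difference that became more positive can have become smaller in size. Ptma, which encodes the acidic, histone H1-binding protein prothymosin alpha, was at 39.9, 77.9 and 172.5 RPKM in controls and at 1549, 1684 and 926.5 RPKM in TSA(0-8h) embryos. With VC, it was at 652.0, 165.4 and 355.8 RPKM without TSA and at 232.6 to 651.9 RPKM in the 5 TSA embryos, so the groups overlapped fully. The difference was 4.03 without VC and 0.19 with VC (interaction −3.79, limma adjusted p = 0.357). Ptma had been picked earlier for its difference between TSA and control in these same embryos without VC. Its value there and its interaction are therefore no independent test. In embryos with VC alone the exact permutation p for Ptma was 0.714.

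H2bc12, a replication-dependent histone H2B gene, ran the other way. It was at 654.8, 885.1 and 825.9 RPKM in controls and at 6.08, 0.672 and 12.5 RPKM in TSA(0-8h) embryos, without overlap. With VC it was at 2.00 to 147.9 RPKM without TSA and at 10.8 to 550.7 RPKM with TSA, which overlapped. Its difference was −7.17 without VC and 0.78 with VC (interaction 8.28, limma adjusted p = 0.190), and the exact permutation p in embryos with VC was 0.429. H2bc12 had been picked in the same way as Ptma, so the same limit holds for its value without VC and its interaction. Histone H2B copies are close in sequence, so part of its reads may belong to relatives. Among the other entries with the smallest interaction p, Fbxo15, an F-box gene of pluripotent cells, had differences of 5.13 without VC and −0.18 with VC. Tipin, a replication fork protector, had −6.01 and 1.81.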

How the data were processed

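Libraries came from amplified RNA of 14 single SCNT embryos. Per the study's methods, the authors trimmed 50-base single-end reads, mapped them to mm9 with TopHat (TopHat2 in the submitters' processing notes), counted reads on exons and deposited RPKM values, scaled to total counts and transcript length, with no strand setting given in the sources used here. Groups came from the titles, and library pools from the library number in each library's name, which no label calls a batch.

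Read totals (3021540 to 13589389 per embryo) and entry lengths were recovered from the steps of the RPKM values, which gave whole reads for 25649 of 25650 entries and between 99.75% and 99.96% of the reads. A floor of 3 reads on a 1-kb transcript equals 0.221 to 0.993 RPKM, and it is higher for shorter entries.

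Entries at 1 RPKM or more in at least 5 embryos were tested with limma 3.58.1 (R 4.3.3; lmFit, eBayes with a trend) on log2(RPKM+1), pseudocount 1, with terms for TSA, VC and pool and Benjamini-Hochberg adjustment; differences on this scale understate changes of low entries. The count test of the study was not used on RPKM. Exact permutation tests (two-sided, 3003 splits of 8 and 6) were run in Python 3.11.15. The fit was tested on simulated data. Named were the 15 genes per direction with the smallest p, 1 entry per gene and only where a symbol was matched. Also named were list members past the threshold or up to 3 at p under 0.05, all deacetylases, Ptma, Omt2a and H2bc12, and 3 per direction of the interaction. The members and all 23 lists were chosen with earlier results of these data known. The result for 1 named entry is not reported here. Symbols were matched for 25250 entries. Filter, pseudocount, scaling, covariates, gene sums, limma-voom and the omission of each embryo were varied.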

Additional observations from a re-analysis of the deposited data

Results flagged for a closer look

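The 8 TSA embryos and the 6 others were taken as groups for each named transcript and library measure, and 128 groups were searched for a single embryo far from the rest by Dixon's gap test, and 21 held one; chance alone flags about 1 in 20 groups. All values here are on the log2(RPKM+1) scale. Among TSA embryos, TSA(0-8h) replicate 2 stood low for the 117-base Cnbp entry (2.69), and TSA(0-8h) replicate 3 stood low for both short Srsf5 entries (4.37 and 3.65) and high for H2ac22 (3.56). TSA(0-8h)+VC(0-8h) replicate 1 stood high for Ssrp1 (3.12), Clpp (4.21), Psd3 (6.45) and Wee1 (6.36), where nearly all other TSA embryos were near 0, and low for Dppa2 (1.37). TSA(0-8h)+VC(0-8h) replicate 2 stood high for Dennd3 (1.91) and Plp2 (5.51), and TSA(0-8h) replicate 1 for Fam189b (1.97).

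Among embryos without TSA, VC(8-15h) replicate 1 stood high for Gtf2i (4.22) and Orc6 (5.04), and VC(8-15h) replicate 2 low for Hpf1 (0.825). Control replicate 3 stood high for Sfr1 (3.07) and Brms1 (4.21), control replicate 2 high for Rps4x (4.64) and low for Psmc3ip (0.378), control replicate 1 low for Dbf4 (0), and the VC(0-8h) embryo low for Tipin (2.17).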

How the results depend on the processing

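The count of 2 entries higher with TSA fell to 0 with no filter on low values, with 1 RPKM required in 10 embryos, with eBayes without a trend, and with RPKM, or reads and lengths, summed by gene (the latter chosen after seeing the data). It was 1 with median-ratio scaling, with pool but not VC as a term, without the 3 embryos given VC(0-8h), and with entries of 300 bases or more (also chosen later). It was 48 at an unadjusted p under 0.01, where 32 were lower. Leaving out 1 embryo gave 1 to 4 higher (4 without control replicate 2, 1 without TSA(0-8h) replicate 1 or 3) and 0 to 1 lower (1 without TSA(0-8h)+VC(8-15h) replicate 1). Limma-voom on recovered reads gave 2 higher and 1 lower, not Omt2a or Cnbp (limma-voom adjusted p = 0.737 and 0.587) but including Zcwpw1 (0.0384) and Sh3bgrl2 (0.0462, lower). Over its alternatives the limma adjusted p of Omt2a reached 0.829 and that of Cnbp 0.985, with no change of sign; Cnbp had 0.143 without TSA(0-8h) replicate 1 and 0.0717 without replicate 3. The cause was not tested.

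Same-numbered embryos of different groups had a mean correlation of deviations of 0.0436 (−0.00237 to 0.103, 23 pairs), not above 0.1 in every pair. In all embryos except the VC(0-8h) embryo the replicate number equals the pool, and embryos of 1 pool were more alike than embryos of different pools, so number and pool cannot be told apart. With the replicate block in place of pool, 2 entries were higher and 0 lower, the interaction had 1 entry in place of 0, of the 20 entries highest without VC 65% (against 58.2% of all) in place of 75% were positive with VC, and of the 20 lowest with VC 35% in place of 65% were negative without VC. Omt2a with VC, with reads and lengths of both entries summed (chosen after seeing the data), differed by 1.07 in place of 2.56. Leaving out 1 embryo gave 0 to 4 interaction entries (4 without TSA(0-8h) replicate 3).

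Signs turned where differences were near 0. The difference in transcripts detected (−17.6) was 1.04 at 5 RPKM and −365.3 to 238.7 leaving out 1 embryo, that in log2 reads −0.222 to 0.113, Ptma with VC −0.265 to 0.721 and H2bc12 with VC −0.0193 to 2.80. Leaving out 1 embryo moved Hdac1 from −0.0143 to 2.05, Hdac10 from −0.748 to 0.451 and Ect2 from −1.08 to 1.47. Hdac10 was 0.0774 with median-ratio scaling, 0.196 with quantile normalization, 0.405 with no covariates, 0.483 without pool and 0.341 with the block. Ect2 (0.0259) was −0.254 with median-ratio scaling, −0.576 with no covariates, −0.0979 without VC as a term, −0.641 without pool, −0.130 with the block, −0.9998 without VC(0-8h) embryos, −0.306 with RPKM summed and −0.751 with reads summed. The other 59 of 62 named transcripts kept their sign in all 31 alternatives in which they had a value.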
